A study of Mus musculus with 30 samples.

Results

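The skin of D6-deficient mice was compared between day 4 and day 6 after the last application of the phorbol ester TPA. These days are the resolution phase of the inflammation. By the methods, 3 mice of each genotype were used per time point and their skin was removed then, so the days hold different mice. The arrays were chosen by genotype and day from the sample labels, 3 at day 4 and 3 at day 6, and they are 6 of the 30 arrays of the series. The series covers D6-deficient and WT female mice of strain 129–C57BL/6, 8–12 weeks old, at 5 time points with 3 arrays for each genotype and day. Shaved back skin received TPA (50 μM in acetone) in 3 applications, 24 h apart, and whole back skin was taken for RNA at day 1, 2, 4 or 6 after the last of them. Day 0 skin is titled untreated, while the series description and the methods say that it received acetone. The comparison asks which transcripts differed between day 4 and day 6 in mice that lack D6. WT skin at the same days (6 arrays) and D6-deficient skin at day 0 served to show where the change differed between genotypes and where levels stood against skin without TPA.

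D6 is an atypical chemokine receptor, encoded by Ccbp2, that binds inflammatory CC chemokines and takes them into the cell for degradation without signalling as other chemokine receptors do. TPA activates protein kinase C, and on skin it induces chemokines and cytokines, draws in neutrophils and drives the epidermis from its normal differentiation into a stress program. Back skin also holds hair follicles, which pass through cycles of rest and growth, and a growing follicle makes its own keratins and houses pigment-producing melanocytes.

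Values below are log2 intensities of probe sets, given for replicates 1, 2 and 3 in that order, and a change is day 6 minus day 4 with its standard error. Median intensities of the 6 arrays lay between 5.64 and 5.75. The tissue matched its label: on these 6 arrays the basal keratin Krt14 lay between 12.98 and 13.70, the dermal collagen Col1a2 between 13.27 and 14.18, the muscle actin Acta1 between 13.02 and 14.13, and the fat hormone gene Adipoq between 12.85 and 14.09. Krt14 (0.09 ± 0.16, adjusted p 0.684) and Adipoq (0.22 ± 0.21, adjusted p 0.459) did not pass the test between the days, whereas Col1a2 (0.79 ± 0.14, adjusted p 0.000103), Acta1 (−0.50 ± 0.14, adjusted p 0.00737) and the other basal keratin gene Krt5 (0.88 ± 0.14, adjusted p 2.84e-05) did. With 3 arrays a group, their number limits the precision, and an exact permutation test of 3 against 3 cannot go below p = 0.1, so all p values are from limma and adjusted over the 36029 probe sets tested. Whole skin was measured, so fewer cells of a type and less RNA per cell cannot be told apart.

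The targeted gene, Ccbp2, was read by 3 probe sets that did not behave alike. On probe set 1422112_at, D6-deficient arrays lay between 3.30 and 3.69 at day 4 and between 3.33 and 3.57 at day 6, whereas WT arrays lay between 5.08 and 5.76 and between 4.21 and 5.05. The genotypes did not overlap there at either day. The brightest probe set, 1437937_at, did not separate them: it read 7.70, 7.64 and 7.87 at day 4 and 7.12, 6.62 and 7.45 at day 6 in D6-deficient skin, and WT skin spanned 7.60 to 8.01 and 6.73 to 7.59. Its change of −0.67 ± 0.25 passed narrowly (adjusted p 0.0390) and did not pass without any of 5 of the 6 arrays, where the adjusted p lay between 0.0602 and 0.223. The third, 1422111_at, spanned 5.30 to 5.42 and 4.81 to 5.25 in D6-deficient skin, below the WT ranges of 5.90 to 6.04 and 5.31 to 5.62. Which part of the gene each probe set reads was not examined.

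Probe sets changed in both directions between day 4 and day 6. A probe set was called when its adjusted p was under 0.05 and its intensity differed more than 3-fold. By this rule 567 probe sets were higher at day 6 (1.57% of those tested) and 562 were lower (1.56%). The split depended on the test: with the t-test of the study's methods and Benjamini-Hochberg adjustment, 99 were higher and 290 lower. In 1106 of the 1129 probe sets called by limma the 3 arrays of day 6 did not overlap the 3 of day 4. These probe sets were chosen by p and fold, which favours separate groups, so this count adds no evidence of its own. Read as genes, with the brightest probe set for each of 17772 symbols and no fold threshold, 3746 were higher (21.1%) and 2713 lower (15.3%), with a median change of 0.03. These shares are the background for the gene lists below, in which higher and lower mean an adjusted p under 0.05. The shares depend on the fit: with only the arrays of the contrast, 1464 genes were higher and 1420 lower. The 15 largest falls included 4 chemokine genes, led by Cxcl5, with Hpx, Mmp13, Il6 and Csf3 among the rest. The 15 largest rises included keratins and other genes of the hair follicle, led by Krt25, and the epidermal genes Mt4, Krt10 and Flg.

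**Figure D1:**
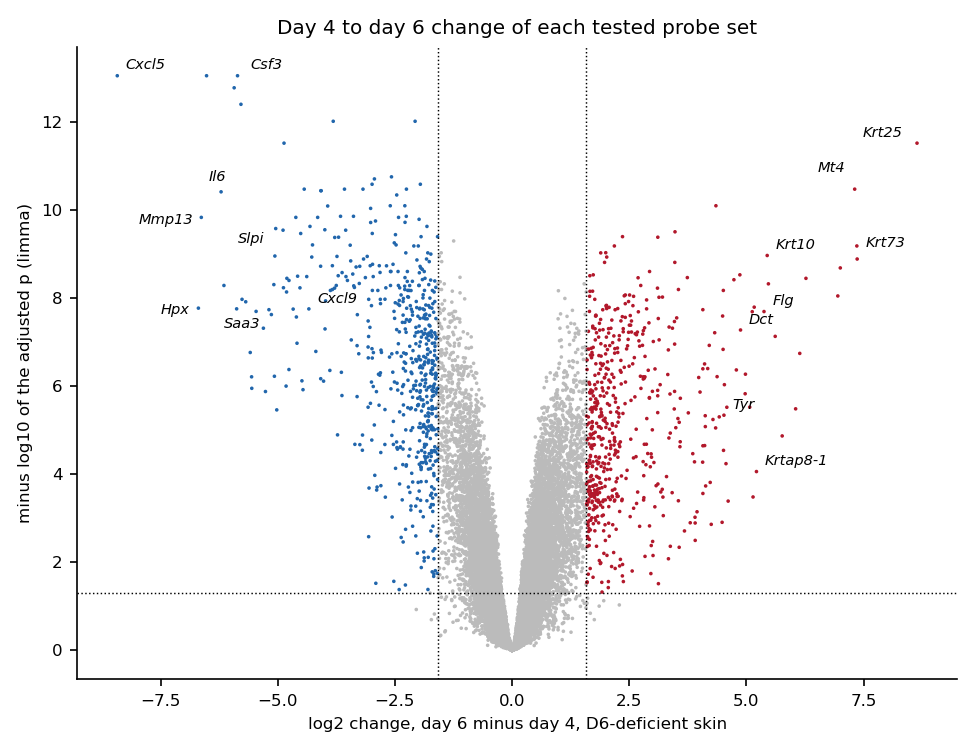
Each point is 1 of 36029 probe sets, with its log2 change from day 4 to day 6 in D6-deficient skin on the x axis and minus log10 of the adjusted p on the y axis; dotted lines mark the 3-fold and 0.05 limits, and the 567 probe sets called higher are red and the 562 called lower blue. Cxcl5 stands at the far left with a change of −8.43 and Krt25 at the far right with 8.64.

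Cxcl5 fell furthest of all genes, and other chemokine genes whose products attract neutrophils through Cxcr2 fell furthest among the rest of the chemokines. Cxcl5 read 11.99, 12.12 and 11.92 at day 4 and 3.44, 4.12 and 3.20 at day 6. All 3 day 6 arrays were far below all 3 day 4 arrays and close to the day 0 values of 3.42, 3.13 and 3.25. The change was −8.43 ± 0.37, a 344-fold lower intensity (adjusted p 8.69e-14). Its day 6 arrays lay near 3.72, the lowest mean intensity kept for testing, so here and in other genes with a group near that level the fold can be read only as a lower bound. Cxcl1, another ligand of Cxcr2, went from 13.20, 12.83 and 12.34 to 7.24, 6.96 and 6.80 on its brightest probe set (−5.79 ± 0.28, adjusted p 3.88e-13), and its 3 probe sets changed by between −6.52 and −3.18. Cxcl3 read 10.84, 10.36 and 9.52 and then 4.48, 3.90 and 3.89 (−6.15 ± 0.53, adjusted p 5.09e-09). For Ppbp, whose product is released from platelets and also acts on Cxcr2, the values were 10.06, 9.94 and 9.78 and then 4.16, 4.00 and 3.83 (−5.93 ± 0.27, adjusted p 1.63e-13). The fall was not shared by every chemokine. Ccl22, a ligand of Ccr4 on T cells, fell by 2.81 (adjusted p 1.32e-08), but Ccl17, which acts on the same receptor, read 7.37, 7.16 and 7.77 at day 4 and 7.25, 7.51 and 8.39 at day 6 with overlapping groups (0.28 ± 0.41, adjusted p 0.640). Ccl20, which attracts cells bearing Ccr6, did not pass either (−0.58 ± 0.37, adjusted p 0.249). Of 35 chemokine genes tested among 38 listed, 24 were lower and 0 higher by limma, against 15.3% lower and 21.1% higher among all genes; the median change was −1.18. On the arrays, the median of the list above day 0 was 1.39, 1.71 and 1.68 at day 4 and 0.19, 0.05 and 0.48 at day 6.

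Promoters of 4 genes that fell together and of 1 that rose, Krt28, are shown because short motifs recur in them. They were chosen after their motifs were seen. Each is the RefSeq window of 250 bases before to 50 bases after a transcript start in GRCm38.p6, written 5′ to 3′ on the gene's strand, and capitals mark matches to TGANTCA (the AP-1 motif), GGGA, any 2 bases and TTCC (an NF-kappaB motif) or CTTTGA (the LEF/TCF motif) on either strand. Overlapping matches on both strands are joined and counted as 1. The windows are chr5:90890995-90891294 (+) for Cxcl1, chr5:90785851-90786150 (+) for Cxcl3, chr5:30012864-30013163 (+) for Il6, chr9:7272264-7272563 (+) for Mmp13 and chr11:99374854-99375153 (−) for Krt28.
Cxcl1: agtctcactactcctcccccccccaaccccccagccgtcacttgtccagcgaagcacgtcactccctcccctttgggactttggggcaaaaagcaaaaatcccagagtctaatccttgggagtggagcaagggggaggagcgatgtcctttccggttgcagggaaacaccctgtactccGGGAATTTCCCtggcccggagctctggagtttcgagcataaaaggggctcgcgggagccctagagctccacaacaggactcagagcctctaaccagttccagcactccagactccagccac
Cxcl3: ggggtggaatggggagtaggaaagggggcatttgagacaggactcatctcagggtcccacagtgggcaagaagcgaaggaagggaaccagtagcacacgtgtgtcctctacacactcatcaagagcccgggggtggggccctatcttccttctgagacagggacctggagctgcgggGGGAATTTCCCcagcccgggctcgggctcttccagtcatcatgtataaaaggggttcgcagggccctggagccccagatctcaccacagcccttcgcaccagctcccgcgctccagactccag
Il6: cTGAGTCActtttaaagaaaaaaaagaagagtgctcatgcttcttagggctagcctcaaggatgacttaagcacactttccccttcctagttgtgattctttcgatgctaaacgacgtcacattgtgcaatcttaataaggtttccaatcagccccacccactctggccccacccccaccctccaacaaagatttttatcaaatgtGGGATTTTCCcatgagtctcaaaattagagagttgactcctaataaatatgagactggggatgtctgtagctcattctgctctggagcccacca
Mmp13: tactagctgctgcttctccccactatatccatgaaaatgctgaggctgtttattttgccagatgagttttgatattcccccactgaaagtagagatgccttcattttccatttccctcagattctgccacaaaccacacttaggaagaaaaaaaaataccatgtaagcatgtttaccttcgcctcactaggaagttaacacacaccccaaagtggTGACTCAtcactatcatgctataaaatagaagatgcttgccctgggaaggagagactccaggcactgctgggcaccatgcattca
Krt28: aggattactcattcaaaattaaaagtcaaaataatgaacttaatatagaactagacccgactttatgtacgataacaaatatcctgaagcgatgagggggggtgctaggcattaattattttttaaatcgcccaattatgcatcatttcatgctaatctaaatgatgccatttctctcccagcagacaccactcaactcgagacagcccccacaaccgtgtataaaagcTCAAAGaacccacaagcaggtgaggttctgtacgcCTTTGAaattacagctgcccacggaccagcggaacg
Cxcl1, Cxcl3 and Il6 each hold 1 match to the NF-kappaB motif, Il6 and Mmp13 hold 1 match each to TGANTCA, and Krt28, a hair follicle keratin that rose, holds 2 matches to CTTTGA. A promoter entry was matched by symbol for 275 of the 404 symbols called lower, 289 of the 452 called higher and 11432 of all 17772. A symbol was counted as holding a motif when any of its windows matched, so a symbol with more windows had more chances. By this count TGANTCA occurred in 16.7% of matched symbols called lower, 8.65% of those called higher and 7.16% of all matched symbols. The NF-kappaB motif occurred in 9 symbols called lower (3.27%), in 0 of those called higher and in 1.78% of all matched symbols. CTTTGA occurred in 17.8%, 20.1% and 15.2% in the same order. Counted by window, a different unit, the shares of the 3 motifs over all 32851 promoter windows were 7.81%, 1.47% and 16%. These matches describe letters in a window, and binding was not measured.

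Several inflammatory cytokine genes fell, while others did not pass. Il6, which drives acute-phase responses, read 11.80, 11.22 and 10.47 at day 4 and 4.93, 5.06 and 4.87 at day 6 (−6.21 ± 0.39, adjusted p 3.78e-11). Replicate 3 was the lowest of the day 4 arrays and still lay far above every day 6 array. Csf3, the growth factor of neutrophils whose product is G-CSF, went from 9.81, 9.51 and 9.24 to 3.54, 3.82 and 3.61 (−5.86 ± 0.26, adjusted p 8.69e-14). Il1b read 11.88, 12.26 and 11.79 and then 7.74, 8.75 and 8.19 (−3.75 ± 0.32, adjusted p 5.09e-09), and the keratinocyte cytokine gene Il24 fell by 3.79 (adjusted p 4.12e-10). Il17a, a T cell cytokine that acts on keratinocytes, varied at day 4 with 8.01, 5.49 and 6.32, and replicate 1 stood high; at day 6 it read 3.94, 4.15 and 4.27 (−2.49 ± 0.42, adjusted p 7.29e-05). Smaller falls were read for Tnf (−0.49, adjusted p 0.00582) and for Il1a (−0.82, adjusted p 0.0311), and without any of 5 of the 6 arrays Il1a had an adjusted p between 0.0573 and 0.171. Il15 and Il20 did not pass (adjusted p 0.598 and 0.449). Of 36 cytokine and receptor genes tested, 21 were lower and 2 higher, with a median change of −0.81; against day 0, 5 were higher and 5 lower at day 6, where 18.5% of all genes were higher and 14.7% lower.

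Most of the neutrophil genes tested fell. S100a8, which encodes a calcium-binding protein abundant in neutrophils and also made by stressed keratinocytes, read 14.44, 14.41 and 14.44 at day 4 and 12.30, 13.36 and 11.80 at day 6 (−1.94 ± 0.58, adjusted p 0.0131). The chemokine receptor gene Cxcr2 went from 10.20, 10.46 and 10.13 to 6.27, 6.59 and 6.49 (−3.82 ± 0.19, adjusted p 9.42e-13). The lectin receptors Clec4d (−5.14 ± 0.49) and Clec4e (−5.09 ± 0.43) and the collagenase Mmp8 (−5.06 ± 0.39) fell to a like extent, and Lcn2, whose product binds bacterial siderophores, fell from 13.95, 13.91 and 13.87 to 7.63, 8.81 and 8.24. Of the 26 genes tested among 30 listed, 18 were lower, each by more than 3-fold, 0 were higher by limma and 8 did not pass. The median change was −2.85, and the highest was 0.615. Summed intensity of 4 markers (S100a8, S100a9, Ngp and Cxcr2) was 52679, 51834 and 51116 at day 4 and 9983, 22568 and 6792 at day 6, so replicate 2 kept the most. Most of this sum was S100a8 and S100a9, and at day 4 S100a9 read 14.75, 14.79 and 14.75, close to the array maxima of 14.75, 14.81 and 14.82, so the size of the fall cannot be read exactly. The summed intensity of the whole list went from 98877, 103521 and 101654 to 22744, 36724 and 20077, and its brightest gene over the series was Anxa1. The part of neutrophil number in the fall of the chemokines and cytokines was not tested.

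Several other genes with large falls belonged to no list. Hpx, which encodes the heme carrier hemopexin, read 12.82, 11.32 and 11.54 at day 4 and 4.72, 6.04 and 4.83 at day 6 (−6.70 ± 0.62, 104-fold, adjusted p 1.67e-08). The acute-phase serum amyloid genes Saa3 (−5.88 ± 0.55) and Saa1 (−5.59 ± 0.61) and the pentraxin gene Ptx3 (−5.31 ± 0.53) also fell, and on these probe sets the groups did not overlap. A dimmer probe set of Ptx3 did not pass (−0.34 ± 0.19, adjusted p 0.177). The anion transporter gene Slc26a4 went from 9.43, 10.05 and 10.22 to 4.40, 4.09 and 3.93 (−5.76 ± 0.52), and Uox, encoding urate oxidase, fell by 5.56.

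Genes of the type I interferon response declined as a group. Ifitm1, whose product restricts virus entry, read 12.79, 13.13 and 13.11 at day 4 and 8.81, 9.46 and 8.94 at day 6 (−3.94 ± 0.26, adjusted p 7.94e-11). Ifitm6 (−3.98 ± 0.36) and the itaconate-producing enzyme gene Irg1 (−4.19 ± 0.45) fell as far, and the GTPase gene Iigp1 fell by 3.00. Irf7, which amplifies interferon production, fell by 0.97 (adjusted p 0.00323), while Ifit2, which acts on viral RNA, overlapped between days (−0.06 ± 0.21, adjusted p 0.847). Of 38 genes tested, 31 were lower and 0 higher by limma, with a median of −0.95. The per-array medians against day 0 were 1.09, 0.71 and 0.84 at day 4 and 0.08, −0.40 and −0.04 at day 6, after 2.01, 1.69 and 2.02 at day 2, so the list was already lower at day 4 than at day 2; that step was not tested.

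Enzymes that cut matrix and enzymes that make lipid mediators split by gene. The collagenase Mmp13 read 11.67, 11.81 and 11.69 at day 4 and 4.34, 6.71 and 4.22 at day 6, with replicate 2 highest (−6.63 ± 0.45, 99.3-fold, adjusted p 1.44e-10). The stromelysin gene Mmp10 fell by 2.99, and Timp1, which encodes an inhibitor of metalloproteinases, fell by 3.79. Of 23 genes of this list tested, 10 were lower and 6 higher, against 15.3% lower and 21.1% higher among all genes, with a median of −0.39. Ptgs2, encoding the inducible cyclooxygenase, went from 10.98, 10.36 and 9.75 to 5.10, 5.90 and 4.52 (−5.19 ± 0.49, adjusted p 1.81e-08), and Hpgd, whose product inactivates prostaglandins, moved the other way from 7.70, 8.35 and 8.35 to 10.67, 10.54 and 10.25 (2.36 ± 0.17, adjusted p 3.95e-10). Of the lipoxygenase genes, Alox8 fell by 3.06 (adjusted p 0.00261) and Alox12e rose by 3.85 (adjusted p 3.38e-05). Among 23 eicosanoid genes tested, 9 were lower and 6 higher, with a median of −0.10. In both lists the count of higher genes was near the share of all genes.

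**Figure D2:**
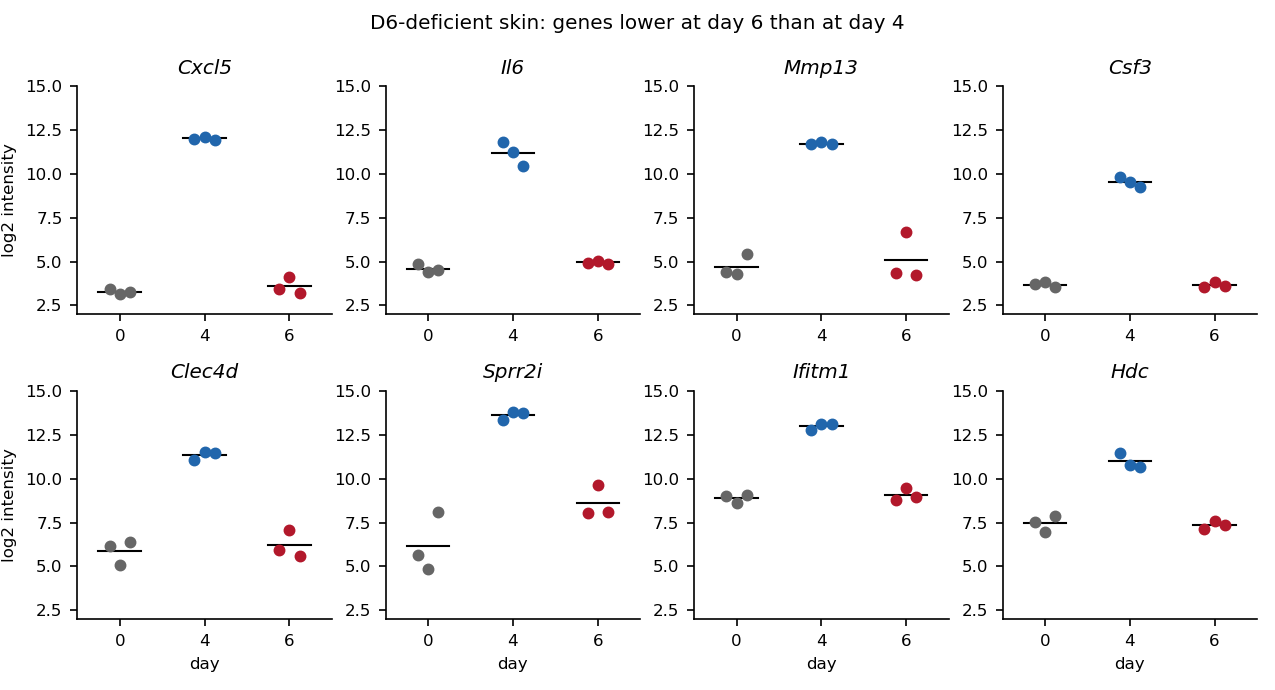
Log2 intensity of 8 genes that fell, on each D6-deficient array at days 0, 4 and 6 (3 arrays a day, shown as dots); horizontal bars are means. For Il6, day 4 arrays lie between 10.47 and 11.80 and day 6 arrays between 4.87 and 5.06, next to 4.40 to 4.84 at day 0.

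The stress program of the epidermis fell as well, and most of its genes stayed above day 0. Slpi, which encodes a protease inhibitor, fell 33.0-fold (−5.05 ± 0.35, adjusted p 2.59e-10). The cornified-envelope genes Sprr2i (−5.02 ± 0.67), Sprr2f (−4.82 ± 0.59) and Lce3a (−4.49 ± 0.54) fell too, as did the related Sprr2j-ps (−5.46 ± 0.51). Lce3a read 13.33, 13.52 and 13.68 at day 4 and 8.81, 10.41 and 7.85 at day 6, whereas day 0 arrays had 5.77, 5.14 and 6.86. Its day 6 arrays were between the other groups, and day 6 remained above day 0 by 3.10 ± 0.54 (adjusted p 0.000139). Of 30 genes tested in the list of stress keratins and activation genes, 20 were lower and 1 higher than at day 4, with a median of −2.16, and 22 were higher than at day 0, with a median of 2.15; among all genes 18.5% were higher and 14.7% lower than at day 0. Replicate 2 kept the highest day 6 level, with a list median of 2.96 above day 0 against 1.69 and 1.25 in replicates 1 and 3. Day 0 arrays also varied, with list medians of −0.01, −0.41 and 0.51, and replicate 3 stood high: Sprr2i read 8.09 and Sprr2f 8.10 on it, which overlapped their day 6 ranges of 8.06 to 9.63 and 7.85 to 10.64. That array also had the highest day 0 sum of the neutrophil markers S100a8, S100a9, Ngp and Cxcr2 (14851, against 3912 and 2481).

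Some differentiation genes of the epidermis, which had been low at day 4, rose. Krt10, the main keratin partner of Krt1 in the suprabasal layers, read 7.55, 9.18 and 8.28 at day 4 and 13.94, 13.38 and 14.01 at day 6, near the 13.83, 13.93 and 13.80 of day 0 (5.44 ± 0.42, adjusted p 1.06e-09). Krt1 went from 6.29, 9.15 and 8.30 to 13.37, 12.83 and 12.91 (5.12 ± 0.48, adjusted p 2.01e-08). Flg, whose product filaggrin bundles keratin and keeps the outer layer hydrated, rose from 4.62, 6.01 and 6.13 to 11.50, 10.53 and 10.86 (5.37 ± 0.51, adjusted p 1.99e-08). In all of these genes replicate 1 was the lowest at day 4. Krt77, a keratin of sweat ducts and suprabasal epidermis, spread more, with 5.38, 9.08 and 6.65 and then 12.59, 10.33 and 13.62 (5.14 ± 1.00, adjusted p 0.000326). Mt4, the metallothionein gene of stratified epithelia, rose by 7.31 ± 0.45, Dapl1 by 5.47 ± 0.47, and the cornified-envelope genes Lor and Ivl by 3.98 ± 0.47 and 1.86 ± 0.35. Of 44 genes tested in the list of basal and differentiating epidermis, 20 were higher, 5 were lower and 19 did not pass, with a median of 0.54, and against day 0 the median was −0.07. Past 3-fold, 2 genes of the list were lower, named after their values were seen: Cnfn, of the cornified envelope (−1.79 ± 0.22), and the transglutaminase gene Tgm1 (−1.71 ± 0.23).

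Keratins of the growing hair follicle gave the largest rises between the days. Krt25, a keratin of the inner root sheath, read 4.10, 4.31 and 4.16 at day 4 and 12.85, 13.65 and 12.00 at day 6, having stood at 3.91, 3.68 and 4.63 at day 0. The change was 8.64 ± 0.46, a 399-fold higher intensity (adjusted p 2.96e-12), and since day 4 lay near the lowest intensity kept for testing, this fold too can be read only as a lower bound. The other inner root sheath keratins Krt73 (7.36 ± 0.57), Krt28 (6.95 ± 0.62) and Krt71 (6.27 ± 0.52) followed, with Krt27 at a 128-fold higher intensity, and so did the hair shaft keratins Krt35 (7.36 ± 0.55), Krt33a (6.05 ± 0.81) and Krt85 (5.61 ± 0.58). S100a3, a calcium-binding protein gene of the hair cuticle, and the keratin-associated genes Krtap11-1 and Krtap8-1 rose by 6.14, 5.76 and 5.21. Krtap11-1 shows how the arrays differed: 3.84 to 4.41 at day 4 and 9.14, 13.25 and 7.35 at day 6. Replicate 2 was the highest and replicate 3 the lowest at day 6 in each of these genes. Of 60 genes listed, 55 were on the array and 44 were tested. Of these 44, 37 were higher and 0 lower by limma, 33 of them by more than 3-fold, and the median was 3.58. The filter used mean intensity, so a rise could itself help a gene to be tested. The list's median above day 0 was 0.20, 0.05 and 0.02 at day 4 and 2.81, 6.53 and 1.13 at day 6. The SD between day 6 arrays had a median of 1.60 over the list, against 0.20 over all probe sets tested. At day 4 the hair list had a median SD of 0.18. Since limma takes the spread as equal in every group, the errors and p values of these rises can overstate their precision. Summed intensity of the markers Krt27, Krt71, Krt85 and Tchh was 357, 328 and 299 at day 4 and 11411, 32409 and 4742 at day 6.

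Melanocyte genes rose with the hair keratins. Tyr, encoding the tyrosinase that begins melanin synthesis, read 3.69, 3.75 and 3.60 at day 4 and 8.71, 9.47 and 6.41 at day 6 (4.52 ± 0.62, adjusted p 4.52e-06). Dct, an enzyme later in that pathway, went from 5.98, 5.43 and 5.13 to 11.24, 10.64 and 9.28 (4.87 ± 0.49), and the melanosome genes Mlana and Pmel rose by 4.97 ± 0.63 and 4.50 ± 0.48. All 12 genes tested were higher, with a median of 2.72, and replicate 3 was again the lowest day 6 array. Tyr had an SD of 0.08 at day 4 and 1.59 at day 6, so its limma error has the limit given for the hair list. Hair and melanocyte lists had also stood above day 0 at day 1, with hair medians of 1.01, 1.80 and 1.14 and melanocyte medians of 2.81, 2.38 and 1.63. Follicle growth stage was not recorded in the labels, and its part in these rises was not tested.

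**Figure D3:**
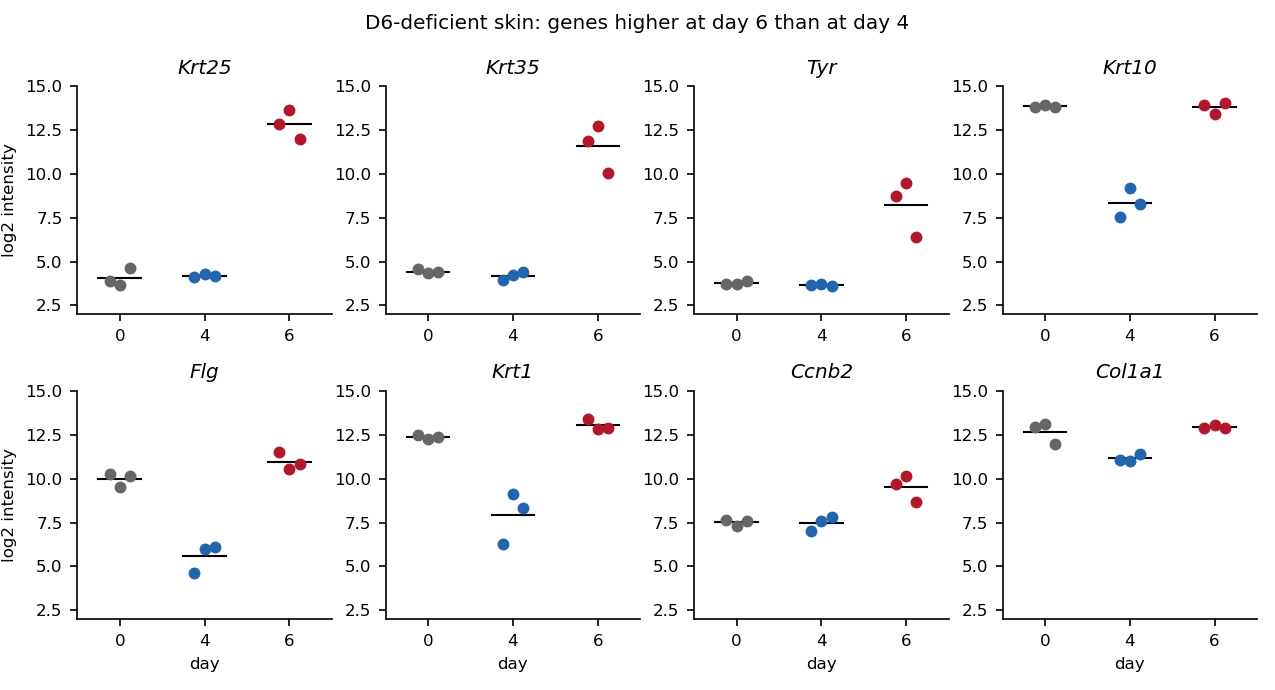
Log2 intensity of 8 genes that rose, on each D6-deficient array at days 0, 4 and 6 (3 arrays a day, shown as dots); horizontal bars are means. Krt10 returns to its day 0 level (13.38 to 14.01 at day 6), whereas Krt25, at 3.68 to 4.63 at day 0, reaches 12.00 to 13.65.

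Cell cycle genes rose moderately. Ccnb2, encoding a mitotic cyclin, read 7.02, 7.56 and 7.84 at day 4 and 9.72, 10.14 and 8.65 at day 6 (2.03 ± 0.35, adjusted p 7.78e-05). The mitotic genes Kif20a (2.05 ± 0.40), Cenpf (1.98 ± 0.33) and Ccnb1 (1.82 ± 0.35) moved alike, and in each of the 4 genes replicate 3 was the lowest day 6 array. Of 47 genes tested, 27 were higher and 0 lower by limma, with a median of 1.06, and all 47 were higher than at day 0, against 18.5% of all genes. Per-array medians above day 0 were 0.47, 0.40 and 0.69 at day 4 and 1.83, 1.90 and 0.68 at day 6, so replicate 3 at day 6 stood where the day 4 arrays were. The arrays took a like order in the hair list, and the part of follicle growth in the cell cycle genes was not tested.

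Matrix genes moved in both directions. Col1a1, the main dermal collagen gene, read 11.07, 11.01 and 11.39 at day 4 and 12.87, 13.05 and 12.90 at day 6 (1.78 ± 0.29, adjusted p 3.96e-05). Col11a1, a fibrillar collagen gene, rose from 3.47, 3.03 and 3.59 to 8.63, 9.65 and 6.73 (4.98 ± 0.58, adjusted p 5.28e-07), in the array order of the hair list, and the microfibril gene Fbn2 rose by 2.34. Tnc, whose product tenascin-C appears in wounds, fell from 12.85, 12.18 and 12.42 to 8.40, 10.05 and 8.08 (−3.64 ± 0.43), and the collagen gene Col8a1 fell by 2.44. Against day 0, Col11a1 and Fbn2 stood higher at day 6 by 4.24 and 2.18 (adjusted p 9.20e-06 and 0.000935). Of 58 genes tested, 24 were higher and 14 lower, with a median of 0.36.

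Skeletal muscle transcripts fell between day 4 and day 6. The list's medians against day 0 were −0.82, −1.41 and −1.46 at day 4 and −2.02, −2.51 and −1.82 at day 6; at day 2 they were −1.84, −1.83 and −1.80, so day 4 stood above the days on either side. Myot, a protein gene of the sarcomere's Z disc, read 11.12, 10.52 and 10.48 at day 4 and 9.27, 8.77 and 9.38 at day 6, below 11.97, 11.83 and 12.00 at day 0 (−1.57 ± 0.24, adjusted p 2.06e-05). Tcap, of the same disc, the filament gene Des and Neb, of the thin filament, changed by −1.53, −1.17 and −1.10; without replicate 1 of day 4 Neb had an adjusted p of 0.0601 and without replicate 2 of day 6 an adjusted p of 0.0586. Of 25 genes tested, 18 were lower and 0 higher by limma, with a median of −0.74 and none past 3-fold, and all 25 were lower than at day 0, against 14.7% of all genes. Summed intensity of 5 muscle markers was 50096, 34500 and 34549 at day 4 and 29626, 19454 and 33225 at day 6. How much muscle each skin sample held was not recorded, and its part in the fall was not tested.

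Most genes of lipid synthesis and fat did not pass, and some rose. Elovl6, an enzyme that lengthens fatty acids, went from 8.42, 8.45 and 8.57 to 10.09, 10.21 and 10.84 (1.90 ± 0.27, adjusted p 8.94e-06) but stood at −2.33 against day 0, when it read 12.76, 12.67 and 12.70; the changes of its 3 probe sets went down to 0.16. Fasn, the fatty acid synthase gene, rose by 1.79 (adjusted p 0.00112). Krt79, a keratin of the sebaceous duct, rose by 1.30 (adjusted p 0.0194), but had an adjusted p of 0.142, 0.0504 and 0.0958 without replicate 1 of day 4, replicate 1 of day 6 and replicate 3 of day 6. Of 36 genes tested for sebaceous gland and lipid synthesis, 10 were higher, against 21.1% of all genes, and 2 lower, with a median of 0.37, and against day 0, 19 were lower. Among 20 adipocyte genes, 4 were higher, a share near that of all genes, and 1 was lower, with a median of 0.23. Thrsp, a regulator of lipid synthesis, read 8.87, 7.75 and 7.39 and then 12.53, 10.83 and 12.98 (4.11 ± 0.63, adjusted p 2.22e-05), although another of its 3 probe sets read −0.14. Pck1, of glycerol synthesis, rose by 2.15. Angptl4, an inhibitor of lipoprotein lipase, fell by 1.48 (adjusted p 0.00588; 0.0587 without replicate 1 of day 6). The adipokine gene Retn overlapped between the days (0.83 ± 0.30, adjusted p 0.0382) and had an adjusted p of 0.325, 0.0527 and 0.235 without replicate 1 of day 4, replicate 3 of day 4 and replicate 3 of day 6.

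Leukocyte lists other than neutrophils moved less as groups, although some of their genes moved far. Among all genes 21.1% were higher and 15.3% lower. The counts below for T and NK cells and for mast cells and basophils were near these shares. So was the count of macrophage genes that were higher. Spp1, encoding the secreted protein osteopontin, read 10.96, 11.87 and 11.44 at day 4 and 7.18, 6.75 and 7.18 at day 6 (−4.38 ± 0.36, adjusted p 3.19e-09), and fell below its day 0 values of 8.52, 8.33 and 8.30. The Fc receptor gene Fcgr4 and the lectin gene Chi3l3 changed by −3.46 and −3.20, while Gpnmb, found in macrophages and melanocytes, rose by 2.55. Of 36 macrophage genes tested, 8 were higher and 14 lower, with a median of 0.11. Among 26 genes of dendritic cells, Langerhans cells and MHC class II, 13 were higher and 7 lower, with a median of 0.59. Ccr7, which guides dendritic cells to lymph nodes, went from 9.11, 8.29 and 9.05 to 5.13, 5.13 and 5.46 (−3.58 ± 0.22, adjusted p 3.29e-11), and the costimulator gene Cd80 fell by 1.30 on its brightest of 4 probe sets, which changed by between −1.35 and −0.03. H2-DMa, of peptide loading, rose by 1.36, and the Langerhans cell gene Cd207 also by 1.36 (adjusted p 0.00964; 0.0761 without replicate 3 of day 6). Of 39 T and NK cell genes, 5 were higher and 8 lower, with a median of −0.09. The granzyme genes Gzmb and Gzma changed by −3.06 and −2.21, and Gata3, a factor of T cells and of hair follicles, rose from 6.51, 6.72 and 7.08 to 9.12, 9.94 and 9.21 (2.65 ± 0.27, adjusted p 6.70e-08). The chemokine receptor gene Ccr6 rose by 1.44. Of 13 mast cell and basophil genes, 1 was higher and 3 lower, with a median of −0.20. Hdc, the enzyme gene for histamine synthesis, read 11.47, 10.79 and 10.69 and then 7.14, 7.58 and 7.34 (−3.63 ± 0.30, adjusted p 2.59e-09). The basophil protease gene Mcpt8 and the tryptase gene Tpsab1 changed by −3.36 and −2.35, whereas the tryptase gene Tpsb2 rose by 0.56 (adjusted p 0.0448) and did not pass without any of 5 of the 6 arrays, with an adjusted p between 0.0631 and 0.241; its other probe set read 0.03.

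Vessel genes were mostly lower at day 6. Sele, encoding the E-selectin on which leukocytes roll, read 8.47, 8.37 and 8.06 at day 4 and 5.89, 5.90 and 6.59 at day 6 (−2.17 ± 0.29, adjusted p 3.25e-06). Its relative Selp, the angiogenesis regulator Angpt2, and Pdpn, a gene of lymphatic endothelium that keratinocytes also express, changed by −1.89, −1.86 and −2.51. Of 33 genes tested, 23 were lower and 1 higher, with a median of −0.70. For red blood cells, 1 of 6 genes tested was higher and 0 lower by limma, with a median of 0.62. Among all genes 21.1% were higher, so this count is not above the background. The gene that passed, the glycolysis gene Bpgm, rose by 0.88, while Hbb-b2 and Alas2 overlapped between the days (adjusted p 0.321 and 0.389).

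**Figure D4:**
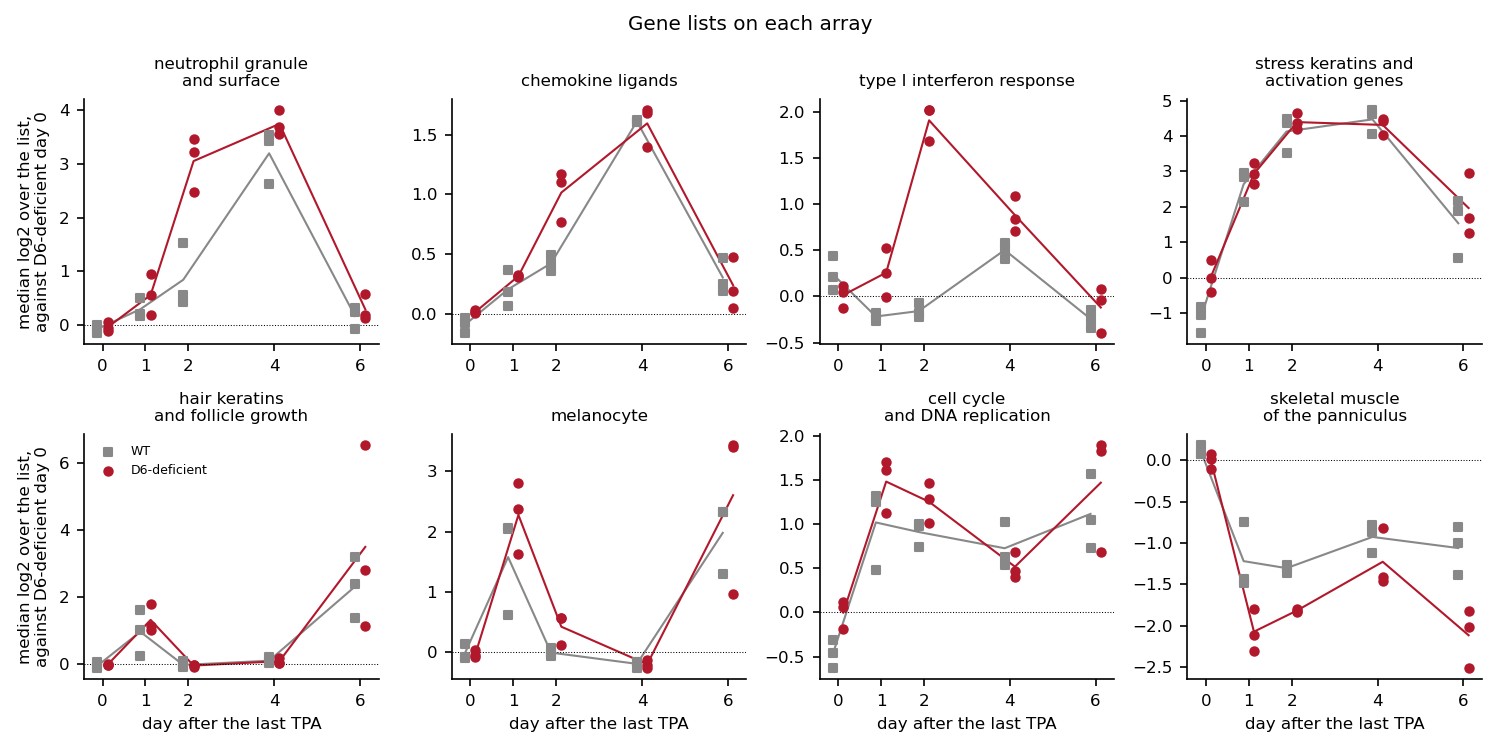
Median log2 level of 8 gene lists on each array, relative to the D6-deficient day 0 mean of each gene, against the day (red dots D6-deficient, grey squares WT, 3 arrays a group; lines join group means). In D6-deficient skin the hair list goes from 0.02 to 0.20 at day 4 to 1.13 to 6.53 at day 6, and the stress list from 4.02 to 4.48 to 1.25 to 2.96.

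Changes in WT skin correlated with those in D6-deficient skin, and few probe sets passed the test for a difference between the genotypes in their change. In WT skin 731 probe sets (2.03%) were called between the days, 336 higher and 395 lower. Across the 36029 probe sets the changes in the genotypes, which share no arrays, had a Pearson correlation of 0.87 and a Spearman correlation of 0.76; this is a description across genes, which are not independent replicates. Of the 1129 probe sets called in D6-deficient skin, 1125 had the same sign in WT skin, and 567 were called in both, which is 50.2% of the D6-deficient list and 77.6% of the WT list. Median changes were larger in D6-deficient skin whichever genotype defined the list. Probe sets called higher in D6-deficient skin had median changes of 2.08 there and 1.53 in WT skin, and those called lower −2.09 and −1.71. Probe sets called in WT skin had medians of 2.31 (D6-deficient) and 2.06 (WT) when higher and of −2.27 and −2.13 when lower. Among the gene lists, the WT medians were −2.88 for neutrophil genes, −0.96 for chemokines, −0.85 for the interferon response, −2.65 for stress genes, 2.20 for hair, 1.76 for melanocytes, 0.54 for the cell cycle and −0.18 for muscle. In 4 lists the medians had opposite signs in D6-deficient and WT skin: 0.62 and −0.54 for red blood cells, 0.11 and −0.35 for macrophages, −0.09 and 0.14 for T and NK cells, and −0.20 and 0.18 for mast cells and basophils. Of 25 muscle genes, 18 were lower in D6-deficient skin; WT skin had 2, and 10.9% of all genes were lower there. Of 20 adipocyte genes, 4 were higher in D6-deficient skin, with a median of 0.23; WT skin had 13, with a median of 0.82, and 15.1% of all genes were higher there. By limma 0 genes of the 21 lists had an adjusted p under 0.05 for the difference of the changes on their brightest probe set, against 9 of 17772 genes (0.0506%), and 1567 of all genes had an unadjusted p under 0.05.

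The difference of the changes, D6-deficient minus WT, was called for 6 probe sets (0.0167%), 2 positive and 4 negative, and 2782 had an unadjusted p under 0.05. In 4 of them D6-deficient skin fell further from a higher day 4 level. Ubd, encoding a ubiquitin-like protein induced by interferon gamma and TNF, read 9.58, 10.13 and 9.91 at day 4 and 4.61, 5.06 and 5.35 at day 6 in D6-deficient skin, and 8.34, 7.12 and 7.62 and then 4.75, 4.78 and 4.86 in WT skin. Genotypes did not overlap at day 4, and the difference of the changes was −1.97 ± 0.37 (adjusted p 0.0477). Ch25h, the enzyme gene that makes the antiviral sterol hydroxycholesterol, read 8.15, 9.43 and 8.42 and then 5.22, 4.87 and 5.25, against 6.78, 7.61 and 6.85 and then 5.77, 5.32 and 5.26 in WT skin (−1.92 ± 0.35, adjusted p 0.0477). Cited1, a transcription coactivator gene, differed by −1.64 ± 0.29 (adjusted p 0.0372). Cxcl9, a chemokine gene induced by interferon gamma that attracts T cells, read 8.43, 9.56 and 9.33 at day 4 and 4.26, 4.86 and 4.66 at day 6 on probe set 1456907_at, against 7.56, 5.87 and 5.87 and then 4.67, 4.31 and 4.77 in WT skin (−2.66 ± 0.46, adjusted p 0.0336). On its brightest probe set, 1418652_at, the difference was −2.05 and did not pass (adjusted p 0.305). In the other pair, WT skin fell and D6-deficient skin stood low throughout. A530023O14Rik read 3.66, 3.40 and 3.83 and then 3.95, 4.07 and 3.66 in D6-deficient skin, against 6.55, 5.80 and 7.46 and then 3.76, 3.84 and 3.73 in WT skin (3.09 ± 0.36, adjusted p 0.000164). Probe set 1458703_at, which has no symbol, followed the same course, with 4.34, 4.36 and 4.42 at day 4 in D6-deficient skin against 7.44, 6.76 and 7.24 in WT skin (2.58 ± 0.30, adjusted p 0.000164). This pair was called in each of the 12 fits that left out 1 array, whereas Cxcl9, Ch25h, Cited1 and Ubd were called in 5, 4, 3 and 3 of them. With the hybridization-control set as a term, or with a replicate block, 2 positive and 0 negative differences were called by limma, so these 4 genes lost their call. With only the arrays of the contrast, 0 differences were called by limma (lowest adjusted p 0.0670, with 1943 at an unadjusted p under 0.05). The pair lost its call there too. Of the 8 fits with other settings that gave the pair a value, A530023O14Rik was called in 7 and 1458703_at in 6. Over these limma fits, with the one on the arrays of the contrast counted, their highest adjusted p was 0.152 and 0.133.

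**Figure D5:**
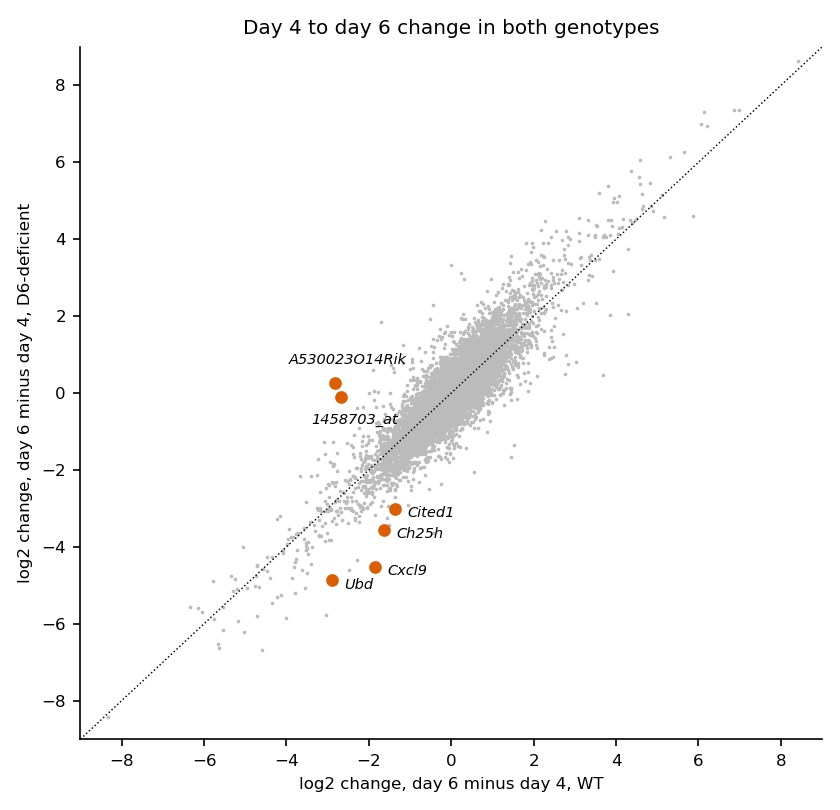
Log2 change from day 4 to day 6 of each of 36029 probe sets in WT (x axis) and D6-deficient skin (y axis). The dotted line marks equal changes, and orange points are the 6 probe sets called for a difference of the changes. Points lie along the line (Pearson correlation 0.87), with A530023O14Rik and 1458703_at above it and Ubd, Ch25h, Cited1 and Cxcl9 below it.

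Day 6 skin was not back at day 0. Against day 0 arrays of the same genotype, 766 probe sets were called (2.13%), 320 higher and 446 lower. The higher calls depended on the arrays and the test. With the t-test of the study's methods, 246 were higher and 435 lower without adjustment. With Benjamini-Hochberg adjustment, which was added here, 24 were higher and 226 lower. Without replicate 3 of day 6, 557 were higher and 567 lower, and without replicate 2 of day 6, 214 were higher and 362 lower. This comparison shares the day 6 arrays with the one above, so values are set side by side. The median change from day 4 to day 6 and the median difference of day 6 from day 0 were −2.85 and 0.31 for neutrophil genes, −1.18 and 0.25 for chemokines, −0.81 and −0.04 for cytokines, and −0.95 and −0.07 for the interferon response. Of the genes tested, 2 of 26 neutrophil, 3 of 35 chemokine, 5 of 36 cytokine and 0 of 38 interferon genes were higher than day 0 by limma, and 1, 0, 5 and 5 were lower, against 18.5% higher and 14.7% lower among all genes. Ifitm6 was among the lower ones (−1.57 ± 0.36, adjusted p 0.00184). They were 3.58 and 3.66 for hair keratins, 2.72 and 2.77 for melanocyte genes and 1.06 and 1.46 for the cell cycle, lists that ended above day 0, and −0.74 and −2.08 for muscle, which ended below it. Timp1 remained 1.70 ± 0.33 above day 0 (adjusted p 0.000390) and Tnc 1.86 ± 0.43 above it (adjusted p 0.00174).

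The mean log2 of the hybridization controls added to each array was split at its largest gap, 0.26. This gave a lower set of 13 arrays and a higher set of 17. The lower set spanned 9.85 to 10.31 and the higher set 10.58 to 10.93, so the range within each set was wider than the gap. All 3 day 6 arrays and replicate 1 of day 4 were in the higher set, and replicates 2 and 3 of day 4 were in the lower set. With the set as a term in the model, 1152 probe sets were called, 579 higher and 573 lower. Within the higher set, where day 4 was replicate 1 alone and was assumed to vary like the other groups, 1217 were called, 634 higher and 583 lower. The labels do not name this set as a batch.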

How the data were processed

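RNA of whole back skin had been hybridized to Affymetrix mouse arrays, and the authors deposited a linear intensity for each probe set after robust multiarray analysis (RMA) in GeneSpring GX. The log2 of each deposited intensity was taken here with no further scaling; a second deposited text held only a sample sheet and was not used. The 64 control probe sets were left out, and the dimmest 20% of the other 45037 by mean log2 intensity (9008) were removed, so that 36029 were tested. Of these, 31923 had 1 symbol, 685 had several and 3421 had none, and 17772 symbols were read as genes by their brightest single-symbol probe set. A mean for each of the 10 groups was fitted to all 30 arrays with limma 3.58.1 in R 4.3.3 (lmFit, eBayes), two-sided, and p values were adjusted by Benjamini-Hochberg within each contrast. Called probe sets had an adjusted p under 0.05 and differed more than 3-fold.

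Genes were named by rule: the 15 largest called increases and decreases without overlap of arrays, up to 4 genes of each list by size of change with those at an adjusted p under 0.05 taken before others, genes the study names, the D6 gene, and up to 5 genes each way for the difference of the changes; tissue markers were named besides. Some genes that this rule names are not given in the text. The 21 lists hold 721 genes. Members and lists were chosen with earlier results of these data known. Il22 and Isg15 had no tested probe set with 1 symbol. Day 4 and day 6 skin came from different mice by the methods, so arrays were not paired. Replicate numbers were also checked as pairs between day 4 and day 6. For replicates 1, 2 and 3 the deviations from the day mean had correlations of 0.144, 0.029 and −0.076. Alternatives changed the filter, scaling, model, test, fold threshold, summary of a symbol and the arrays used. The steps were tested on simulated data. Figures and motif searches used Python 3.11.15 and matplotlib 3.10.9.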

Additional observations from a re-analysis of the deposited data

Results flagged for a closer look

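The change from day 4 to day 6 differed between D6-deficient and WT skin for 6 probe sets, by a test of the difference itself in limma. These passed an adjusted p under 0.05 and the 3-fold limit, and 13 passed without the fold limit. Values are D6-deficient minus WT on the log2 scale. The difference was 3.09 for A530023O14Rik (1444179_at) and 2.58 for the probe set without a symbol, 1458703_at. Both were called in all 12 fits that left out 1 array, and in 7 and 6 of the 8 other fits that gave them a value. WT skin fell for both (−2.82 and −2.68), whereas D6-deficient skin did not pass by limma (0.26, adjusted p 0.46, and −0.10, adjusted p 0.745). D6-deficient arrays lay near 3.72, the lowest mean intensity kept for testing, so a fall there could hardly be read. The difference was −2.66 for Cxcl9 (1456907_at), −1.97 for Ubd, −1.92 for Ch25h and −1.64 for Cited1. These were called in 5, 4, 3 and 4 of 9, 9, 9 and 8 other fits, and over those fits and the ones that left out 1 array each difference stayed negative. With the hybridization-control set as a term, or with a replicate block, these 4 lost their call. No formal test of 1 array standing apart was made.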

How the results depend on the processing

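Between day 4 and day 6 in D6-deficient skin, the 1129 called probe sets became 11307 without a fold threshold, 2761 at 2-fold, 389 (99 higher, 290 lower) with the t-test of the study's methods and Benjamini-Hochberg adjustment (1031 unadjusted), and 677 when the probe sets of a symbol were averaged, which leaves fewer units to test. In the same order, the 731 of WT skin became 7956, 1945, 395 and 472, and the 766 of day 6 against day 0 (320 higher, 446 lower) became 11427, 2312, 250 (24 higher, 226 lower) and 441, and 506 (88 higher, 418 lower) within the higher hybridization-control set, an alternative chosen after seeing the data, in which day 0 and day 4 are 1 array each, assumed to vary like the other groups. The 6459 genes became 2884 with only the arrays of the contrast and 3116 within the higher set, both with fewer arrays. The 6 differences between genotypes became 13 without a fold threshold, 12 at 2-fold, 1 with the lowest 40% of probe sets left out, 2 with the hybridization-control set as a term and 2 with a replicate block (both positive in each), and 0 by limma with only the arrays of the contrast, where 1943 had an unadjusted p under 0.05. The cause was not tested where fewer units or arrays do not give it. The t-test was not run for the differences.

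With a replicate block, 1129 probe sets were called between the days and 6433 genes passed; replicates share only a number (same-number correlations 0.144, 0.029 and −0.076), so this is not a pairing. Leaving out 1 array gave 1035 to 1344 called probe sets, 5075 to 6723 genes, 637 to 894 in WT skin and 576 to 1124 against day 0. For the differences it gave 2 to 10: 10 without D6-deficient day 6 replicate 3; 3 without WT day 4 replicate 2, WT day 6 replicate 2 or WT day 6 replicate 3; and 2 without WT day 6 replicate 1, D6-deficient day 4 replicate 2 or D6-deficient day 6 replicate 1. For the 120 named probe sets (118 genes), 1355 of 1436 values under 12 other settings kept direction and side of the threshold, 80 lost the threshold (51 of them with the adjusted t-test), 1 gained it and 0 reversed; leaving out 1 array kept 695 of 720 values. Centring each array moved the median change by at most 0.06. Probe sets near background limit small changes, and 3 arrays a group limit all of them.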
